A study of Mus musculus with 12 samples.

Results

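The annexins analysed here are 8 genes, *Anxa1*, *Anxa2*, *Anxa3*, *Anxa4*, *Anxa5*, *Anxa6*, *Anxa7* and *Anxa11*, found by symbol among the 55487 genes of the count table. The mouse annotation holds 12 annexin genes, and the other 4 are *Anxa8*, *Anxa9*, *Anxa10* and *Anxa13*. Of the 8 members, 7 had enough reads to be tested, among 16908 genes tested in all, and *Anxa1* did not. The question was whether annexin transcripts differ between ARG1+ and ARG1- microglia and between the sexes.

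Microglia were sorted from the basal forebrain and striatum of YARG mice at postnatal day 13. In these mice YFP is expressed from the *Arg1* locus, so YFP marks cells that have used that locus, and all mice of all groups carried the reporter. Cells positive for the fractalkine receptor CX3CR1 and negative for CD206, a marker of border macrophages, were split by YFP into ARG1+ and ARG1- microglia. The 12 libraries form 4 groups of 3: ARG1- females (replicates 1, 2 and 13), ARG1+ females (7, 8 and 15), ARG1- males (5, 6 and 14) and ARG1+ males (11, 12 and 16). Each library was made from a pool of mice, so a replicate is a pool and not 1 animal, and the labels do not say which libraries share a litter.

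Annexins are cytosolic proteins that bind negatively charged phospholipids, above all phosphatidylserine, when calcium rises. They share a folded core and differ in the tail in front of it, which is where partner proteins such as the S100 family dock. They are known for resealing torn membranes, for vesicle traffic and, in the case of annexin A1, for limiting inflammation through formyl peptide receptors. Phosphatidylserine is also the signal by which dying cells and some synapses are recognised and engulfed by microglia.

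Total counts ranged from 28356659 to 60625170 per library, and 3 counts, the floor under which a gene is read as not detected, came to between 0.0511 and 0.102 CPM (reads of a gene per 1000000 reads of the library after TMM scaling). *Arg1* itself was read in just 2 libraries, both of ARG1+ females, with 52 counts in replicate 15 and 2 in replicate 8, so the transcript does not check the YFP sort. All 10 microglial markers were detected in both populations, and 6 of them were lower in ARG1+ microglia (*P2ry12*, *Tmem119*, *Siglech*, *Gpr34*, *Fcrls* and *Olfml3*), 1 was higher (*Sall1*), and their median log2 fold change was -0.48. Over all genes tested, 9.42% were called lower and 6.44% higher in ARG1+ microglia. Of 8 border macrophage markers, 6 were tested and 0 were called. *Cd163* and *Lyve1* were at 0 in all ARG1- libraries and had medians of 0 CPM in ARG1+ libraries. Log2 fold changes of the tested border macrophage markers were 3.01 for *Ms4a7*, 1.81 for *Siglec1*, 0.67 for *Pf4* and 0.26 for *Mrc1*. They were -0.10 for *F13a1* and -0.83 for *Cbr2*, and the median was 0.47. The summed level of the 8 markers was 120 to 144 CPM in ARG1- and 119 to 253 CPM in ARG1+ libraries, mostly *Mrc1*, the gene of CD206. The summed level of 8 astrocyte and ependymal markers was 176 to 224 CPM in ARG1- and 130 to 151 CPM in ARG1+ libraries, mostly *Slc1a3*, which was lower. Single genes of other lists were also lower in ARG1+ microglia, *Plac8* (monocyte list), *Cd79b* (lymphocyte list), *Cnp* (oligodendrocyte list) and *Hbb-bt* (erythroid list). Some stood far above the rest of their list. In ARG1- libraries *Cd79b* had a mean of 158 CPM, and the next lymphocyte marker, *Cd79a*, had 0.0279 CPM. *Slc1a3* had 176 CPM, with *Aldoc* next at 9.54 CPM, and *Cnp* had 194 CPM, with *Mbp* next at 65.9 CPM. These single genes therefore do not measure the amount of those cell types. A list of detained-intron and nuclear transcripts summed to 1746 to 3469 CPM in ARG1- and 3820 to 7027 CPM in ARG1+ libraries, which did not overlap. Of its 10 genes, 5 were called higher in ARG1+ microglia, beside 6.44% of all genes tested. The part of these differences in the annexin results was not tested. In bulk libraries, fewer cells with a transcript and less of it per cell cannot be told apart.

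The sequences next to the start sites of *Anxa5* and *Anxa2* are shown because only these members had ARG1+ and ARG1- libraries that did not overlap. They are the exon-free bases directly before the annotated start, from RefSeq on GRCm38.p6, read in the direction of the gene, with the motifs named below in capitals. *Anxa5* lies on the minus strand of chromosome 3 and its interval is chr3:36475895-36475936. *Anxa2* lies on the plus strand of chromosome 9 and its interval is chr9:69453433-69453619.
Anxa5: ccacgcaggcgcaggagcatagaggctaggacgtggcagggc
Anxa2: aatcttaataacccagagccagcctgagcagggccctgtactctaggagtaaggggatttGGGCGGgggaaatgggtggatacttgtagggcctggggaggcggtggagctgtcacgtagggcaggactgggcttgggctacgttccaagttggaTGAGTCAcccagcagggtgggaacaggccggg
The *Anxa5* interval is 42 bases long because an exon of a gene on the other strand, *1810062G17Rik*, begins beyond it. That neighbour was read in ARG1- male replicate 5 alone, with 14 counts, while *Anxa5* was read in all 12. The *Anxa2* interval is 187 bases long and holds 1 GC box (GGGCGG) and 1 AP-1 motif (TGANTCA, here TGAGTCA). The short *Anxa5* interval holds neither of these, nor the PU.1 motif GAGGAAGT or the E-box CACGTG. Over 32851 promoters of 250 bases, searched on both strands, 32.7% held the GC box, 6.75% the AP-1 motif, 6.02% the E-box and 2.44% the PU.1 motif. A match describes the letters and is not shown to be a bound site.

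*Anxa5* was the annexin that differed between the populations. Annexin A5 binds phosphatidylserine with high affinity, assembles into a lattice on damaged membranes, and is the protein used in the laboratory to stain dying cells. Its gene (ENSMUSG00000027712) spans bases 36448923 to 36475894 of chromosome 3 in GRCm38. ARG1- females had 24.5, 27.2 and 21.2 CPM in replicates 1, 2 and 13, and ARG1- males had 24.5, 18.7 and 14.4 CPM in replicates 5, 6 and 14. ARG1+ females had 60.0, 60.9 and 67.9 CPM in replicates 7, 8 and 15, and ARG1+ males had 60.6, 58.5 and 51.6 CPM in replicates 11, 12 and 16. Every ARG1+ library was above every ARG1- library. The means were 59.9 ± 5.23 CPM in ARG1+ and 21.8 ± 4.65 CPM in ARG1- microglia (SD, n = 6), and the log2 fold change was 1.47 (SE 0.14), a 2.77-fold difference, with an adjusted p of 0.000266 in edgeR's quasi-likelihood test. The call held in all 12 fits that left out 1 library, where the log2 fold change lay between 1.41 and 1.55.

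Of the 7 members tested, 1 was higher in ARG1+ microglia and 0 were lower, beside 6.44% of all genes tested that were called higher, 9.42% called lower and 15.9% called in either direction. The median log2 fold change was 0.30 over the 7 members and 0.06 over all genes tested. *Anxa5* and *Anxa2* were the 2 members whose populations did not overlap, both with ARG1+ above, which was the case for 3.48% of all genes tested.

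**Figure D1:**
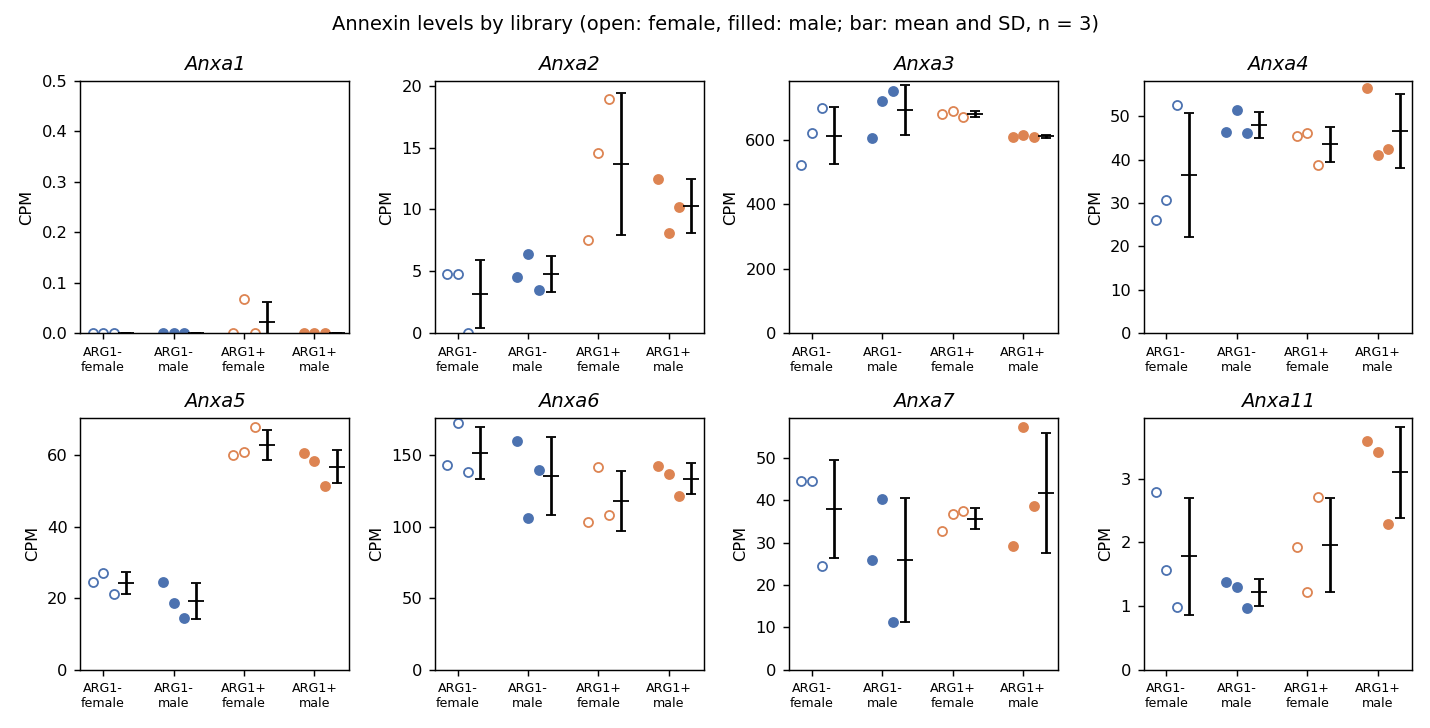
Level of each annexin in CPM (vertical axes, each on its own linear scale from 0) in the 4 groups, with 1 point per library and the group mean ± SD (n = 3) in black. The ARG1+ points of Anxa5 (51.6 to 67.9 CPM) and Anxa2 (7.51 to 18.9 CPM) lie above all ARG1- points, and those of the other members overlap.

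*Anxa2* had a larger fitted difference than *Anxa5* but did not pass the test. Annexin A2 pairs with S100A10, links membranes to actin and binds plasminogen at the cell surface. Its gene (ENSMUSG00000032231) spans bases 69453620 to 69491795 of chromosome 9. ARG1- females had 4.80, 4.74 and 0 CPM in replicates 1, 2 and 13, and ARG1- males had 4.52, 6.39 and 3.46 CPM in replicates 5, 6 and 14. ARG1+ females had 7.51, 14.6 and 18.9 CPM in replicates 7, 8 and 15, and ARG1+ males had 12.4, 8.11 and 10.2 CPM in replicates 11, 12 and 16. The populations did not overlap, and the 0 in ARG1- female replicate 13 stood far from the 117 to 191 counts of the other ARG1- libraries, although that library was the deepest. The log2 fold change was 1.60 (SE 0.78, adjusted p = 0.198, edgeR). Without ARG1- female replicate 13 it was 1.28, with an adjusted p of 0.0182. Genes at 0 counts in 1 library and at 100 or more in each of the other 11 numbered 0 to 35 per ARG1- library, with *Anxa2* and 1 other in ARG1- female replicate 13, and 0 to 1 per ARG1+ library.

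The partner gene of annexin A2 was called lower in ARG1+ microglia, whereas the higher values of *Anxa2* did not pass the test with all 12 libraries. *S100a10*, the S100 protein that joins annexin A2 in a heterotetramer, had 73, 180 and 86 counts in ARG1- females and 151, 81 and 168 counts in ARG1- males. It had 15, 13 and 38 counts in ARG1+ females and 30, 17 and 17 counts in ARG1+ males. Every ARG1+ library was below every ARG1- library, and the log2 fold change was -2.47 (SE 0.46, adjusted p = 0.00454, edgeR). The levels were low in both populations, 3.30 ± 1.39 CPM in ARG1- and 0.590 ± 0.263 CPM in ARG1+ microglia (SD, n = 6).

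The ratio of *Anxa2* to *S100a10* counts within a library does not depend on scaling between libraries. With 0.5 added to each count, its log2 value was between 3.94 and 4.99 in the 6 ARG1+ libraries and between -7.43 and 1.23 in the 6 ARG1- libraries. The means were 4.33 ± 0.37 and -0.89 ± 3.27 (SD, n = 6), and they differed by 5.22. Without ARG1- female replicate 13, where the 0 count of *Anxa2* sets the value of -7.43, the difference was 3.91. No p is given, because the 2 genes each separated the populations, in opposite directions, and their ratio then has to. The 2 transcripts differ in length, so the ratio compares libraries and gives no ratio of molecules.

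**Figure D2:**
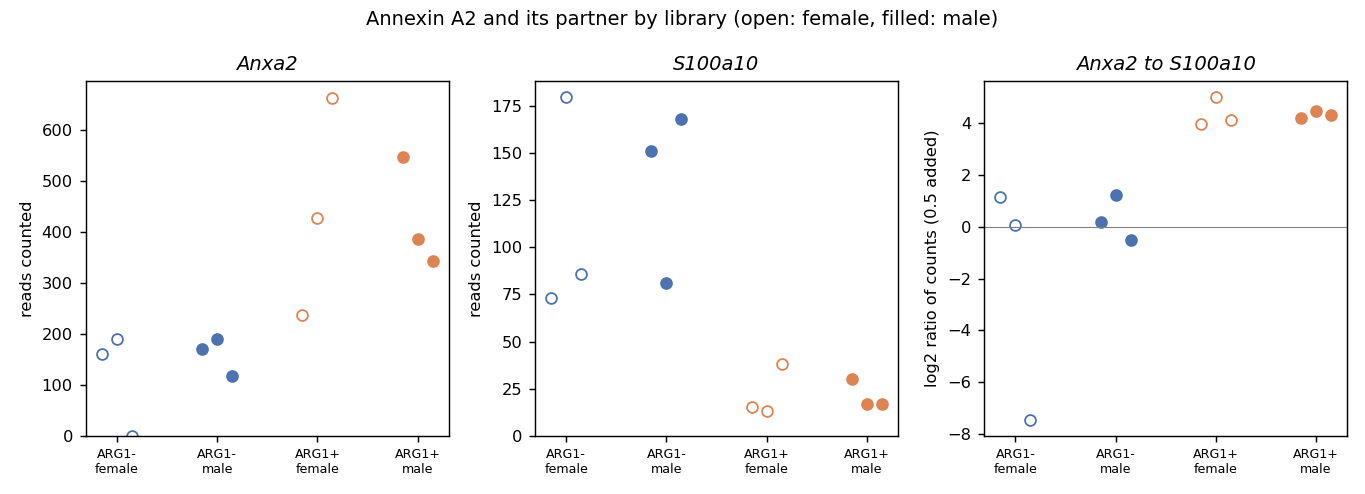
Reads counted for Anxa2 and S100a10 (linear axes from 0) and the log2 ratio of their counts with 0.5 added, with 1 point per library in the 4 groups. All 6 ARG1+ libraries lie between 3.94 and 4.99 in the ratio, above the ARG1- libraries, of which 1 female library stands at -7.43.

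*Anxa3* was the main annexin transcript of these cells and its populations overlapped. Annexin A3 is a small family member known from myeloid cells, microglia included. In CPM its lowest, median and highest values were 522, 660 and 754 in ARG1- libraries and 609, 645 and 692 in ARG1+ libraries. The ARG1+ values lay within the ARG1- range, and the means were 647 ± 38.9 CPM in ARG1+ and 654 ± 86.2 CPM in ARG1- libraries (SD, n = 6). The log2 fold change was -0.02 (SE 0.10, adjusted p = 0.939, edgeR), and its sign changed over the alternatives, between -0.02 and 0.10. *Anxa3* took 68.0% to 77.7% of the members' counts in ARG1- and 66.7% to 73.1% in ARG1+ libraries. *Anxa5* took 1.49% to 3.19% in ARG1- and 5.89% to 7.17% in ARG1+ libraries, again without overlap. Set against *Anxa3* in the same library, *Anxa5* counts were 1.91% to 4.70% of *Anxa3* counts in ARG1- and 8.46% to 10.1% in ARG1+ microglia. The 8 members together held 0.0696% to 0.0995% of all counts in ARG1- and 0.0869% to 0.103% in ARG1+ libraries, which overlap.

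The remaining tested members overlapped between the populations. *Anxa6*, which has a doubled core and acts in endosome and cholesterol traffic, had 106, 141 and 172 CPM as lowest, median and highest in ARG1- and 103, 129 and 143 CPM in ARG1+ libraries (log2 fold change -0.19, SE 0.13, adjusted p = 0.380, edgeR). *Anxa4*, which bends and organises membranes, had 26.0, 46.3 and 52.7 CPM in ARG1- and 38.8, 44.0 and 56.5 CPM in ARG1+ libraries (0.11, SE 0.17, adjusted p = 0.736). *Anxa7*, first described as a protein that fuses secretory granules, had 11.2, 33.2 and 44.6 CPM in ARG1- and 29.3, 37.1 and 57.2 CPM in ARG1+ libraries (0.30, SE 0.30, adjusted p = 0.559). These 3 genes did not pass the test, and relative to its mean *Anxa7* varied most among them within ARG1- microglia (coefficient of variation 42.4%, against 26.4% for *Anxa4* and 15.7% for *Anxa6*). *Anxa11*, which tethers RNA granules to lysosomes, was the lowest of the tested members, with 0.977, 1.34 and 2.79 CPM in ARG1- and 1.22, 2.49 and 3.59 CPM in ARG1+ libraries (0.74, SE 0.42, adjusted p = 0.277). *Anxa11* shares 113 exonic bases with *Anxa11os* on the other strand, and the library kit does not mark strand, so its reads and those of the antisense gene cannot be told apart there.

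*Anxa1*, the annexin of glucocorticoid and formyl peptide receptor biology, was read in ARG1+ female replicate 8 alone, with 2 counts, and had none elsewhere. All of these values are under the floor of 3 counts, so *Anxa1* was not detectable at this depth. Of the annexins that are not members, *Anxa8* and *Anxa10* had 0 counts throughout, and *Anxa13* was read in ARG1- female replicate 2 (22 counts) and ARG1+ male replicate 12 (2 counts). *Anxa9*, an annexin with degenerate calcium sites, had 0.330, 0.200 and 0.102 CPM in ARG1- females and 0.132, 0.134 and 0.237 CPM in ARG1- males. It had 0.127, 2.18 and 0.142 CPM in ARG1+ females and 2.61, 1.03 and 0.563 CPM in ARG1+ males. The ARG1+ libraries were split, with 2 female libraries at the ARG1- level, and the gene did not pass the test (log2 fold change 2.49, SE 0.83, adjusted p = 0.0617, edgeR). It passed without ARG1+ female replicate 7 (adjusted p = 0.0444) or replicate 15 (adjusted p = 0.0435), with ARG1 status as the only term (adjusted p = 0.0430) and with DESeq2 (adjusted p = 0.00942). The gene shares 71 exonic bases with *Mindy1* on the other strand, which had up to 1107 counts in a library. It shares 94 exonic bases with *6330562C20Rik* on the same strand, which had up to 25 counts. *Anxa9* itself had as few as 4 counts, and the part of these overlaps in its values was not tested.

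Per kilobase of exon, *Anxa3* ranked first in ARG1- microglia with 180 CPM per kb, then *Anxa6* with 48.9, *Anxa5* with 12.2, *Anxa4* with 9.09, *Anxa7* with 5.32, *Anxa2* with 1.07 and *Anxa11* with 0.363 CPM per kb. The order was the same in ARG1+ microglia, with 178, 42.9, 33.7, 9.71, 6.46, 3.20 and 0.611 CPM per kb. What changed was the spacing. In ARG1- microglia the ranges of *Anxa5* and *Anxa4* overlapped and those of *Anxa6* and *Anxa5* did not, and in ARG1+ microglia the reverse held. The spacing around *Anxa2* changed as well. Its range overlapped that of *Anxa11* in ARG1- microglia only and that of *Anxa7* in ARG1+ microglia only. In both populations *Anxa3* stood clear of *Anxa6*, and *Anxa4* overlapped *Anxa7*. Among 16879 tested genes with a known length, *Anxa3* was at percentile 98.7 in ARG1- and 99.0 in ARG1+ microglia, and *Anxa5* was at percentile 76.1 in ARG1- and 92.1 in ARG1+ microglia.

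**Figure D3:**
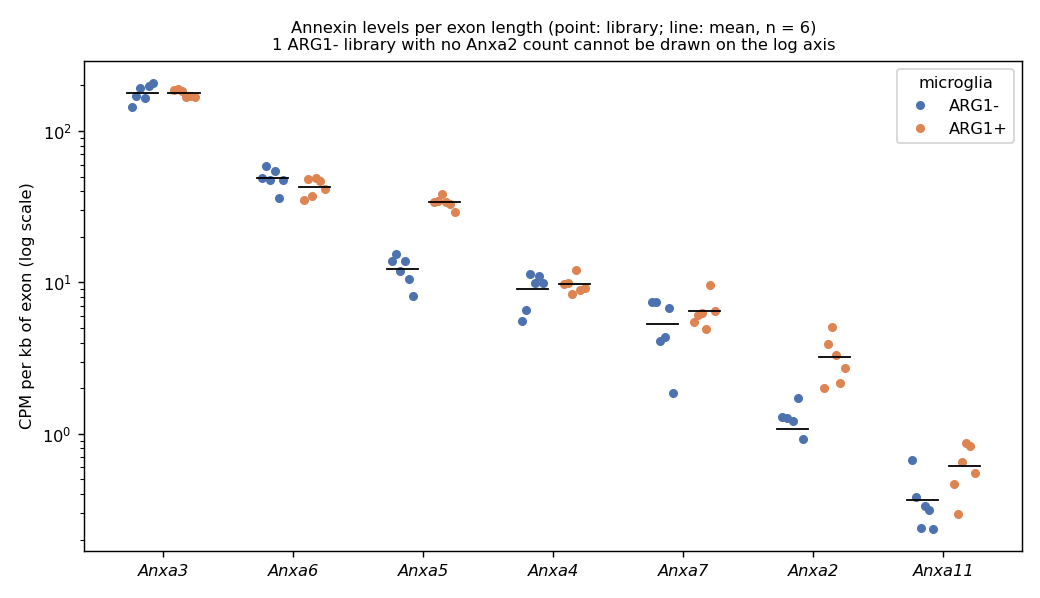
CPM per kilobase of exon on a log axis for the 7 tested annexins, with 1 point per library and a line at the mean of 6 libraries, ARG1- in blue and ARG1+ in orange. Anxa5 sits beside Anxa4 in ARG1- microglia (12.2 and 9.09) and beside Anxa6 in ARG1+ microglia (33.7 and 42.9).

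The ARG1 difference of *Anxa5* was present in each sex. In females its log2 fold change was 1.37 (SE 0.20, adjusted p = 0.00704, edgeR), beside 6.76% of genes called in females. In males it was 1.56 (SE 0.20, adjusted p = 0.0100, edgeR), beside 5.13% of genes called in males. The male call was lost without ARG1+ male replicate 12 (adjusted p = 0.0514) and when only the 6 male libraries were fitted (adjusted p = 0.0719), with log2 fold changes of 1.57 and 1.56. Both fits called few genes of any kind in males. The first called 7 higher and 1 lower of 17725 genes, and the second 1 higher and 0 lower of 15356. The main fit called 344 higher and 524 lower of 16908 genes in males. No other member was called in either sex by edgeR. At an unadjusted p under 0.05 there was 1 member in females (*Anxa5*), beside 22.9% of all genes, and 2 in males (*Anxa5* and *Anxa11*), beside 22.8%. DESeq2 on the 4 groups called these same 2 in males, beside 14.5% of all genes it tested there. For *Anxa11* the fitted log2 difference was 1.34 (SE 0.56, adjusted p = 0.179) in males and 0.13 (SE 0.55, adjusted p = 0.929) in females, and the difference between these effects did not pass (adjusted p = 0.687, edgeR).

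None of the 7 tested members was called between females and males by edgeR. In ARG1- microglia the log2 difference of females minus males lay between -0.60 for *Anxa2* and 0.55 for *Anxa7*, with a smallest adjusted p of 0.621, and 0 members were called beside 0.0946% of all genes. In ARG1+ microglia it lay between -0.66 for *Anxa11* and 0.41 for *Anxa2*, and 0 members were called beside 0.0355% of all genes. For the difference of the ARG1 effect between the sexes 0 members and 0 genes were called. At an unadjusted p under 0.05 the count of members was also 0 in each of these 3 contrasts, beside 10% (1692 genes), 3.12% and 9.32% of all genes. DESeq2 on the 4 groups called 0 members in the same contrasts, beside 2.36%, 0.228% and 1.57% of the genes it tested.

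**Figure D4:**
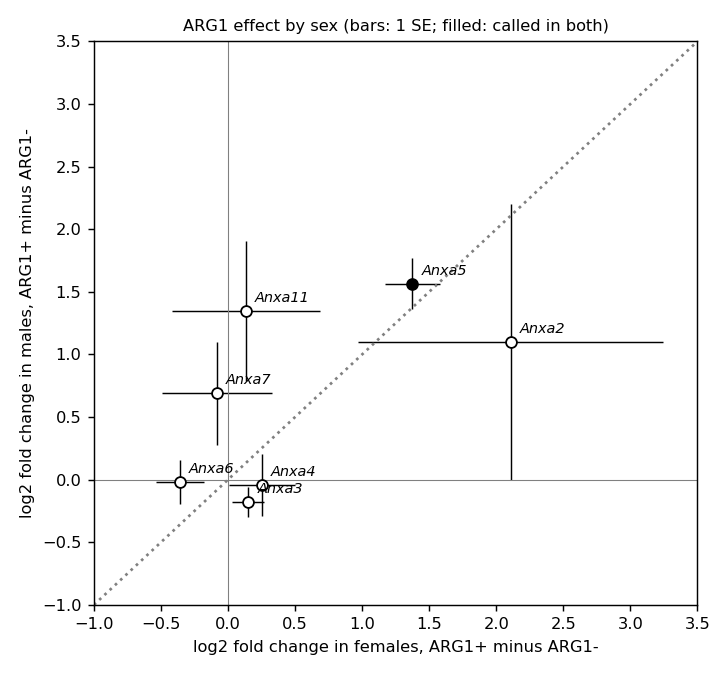
Log2 fold change of ARG1+ minus ARG1- microglia in females (horizontal) and in males (vertical) for the 7 tested annexins, with bars of 1 SE and the line of equal effects dotted. Anxa5 (1.37 and 1.56) is the filled point called in both sexes, and Anxa2 and Anxa11 carry wide bars.

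Of the 10 annexin-binding proteins listed, 8 were tested, 0 were higher in ARG1+ microglia and 2 were lower, *S100a10* and *Pdcd6*, beside 6.44% of all genes higher and 9.42% lower. Their median log2 fold change was -0.42. *Pdcd6*, the calcium sensor ALG-2 that binds annexins A7 and A11, had 54.9 ± 10.1 CPM in ARG1- and 36.7 ± 5.80 CPM in ARG1+ microglia (SD, n = 6), and the fitted log2 difference was -0.58 (SE 0.16, adjusted p = 0.0241, edgeR). The *Pdcd6* call was lost in 6 of the 12 fits that left out 1 library, with adjusted p of up to 0.0820. It was lost without ARG1- female replicate 2, ARG1- male replicate 14, ARG1+ female replicates 7 and 8, and ARG1+ male replicates 12 and 16. *Sri*, the annexin A7 partner sorcin (-0.39, adjusted p = 0.0647), *Pef1*, which pairs with ALG-2 (-0.45, adjusted p = 0.0977), and *S100a1* (-0.58, adjusted p = 0.116) had negative values that did not pass, except that *Sri* passed without ARG1- male replicate 14 (adjusted p = 0.0432). *S100a6* (2.54, adjusted p = 0.210), *S100a4* (-0.26, adjusted p = 0.839) and *S100b* (0.14, adjusted p = 0.958) had mean levels under 1 CPM in both populations, and *S100a11* and *Ahnak* were too low to be tested.

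**Figure D5:**
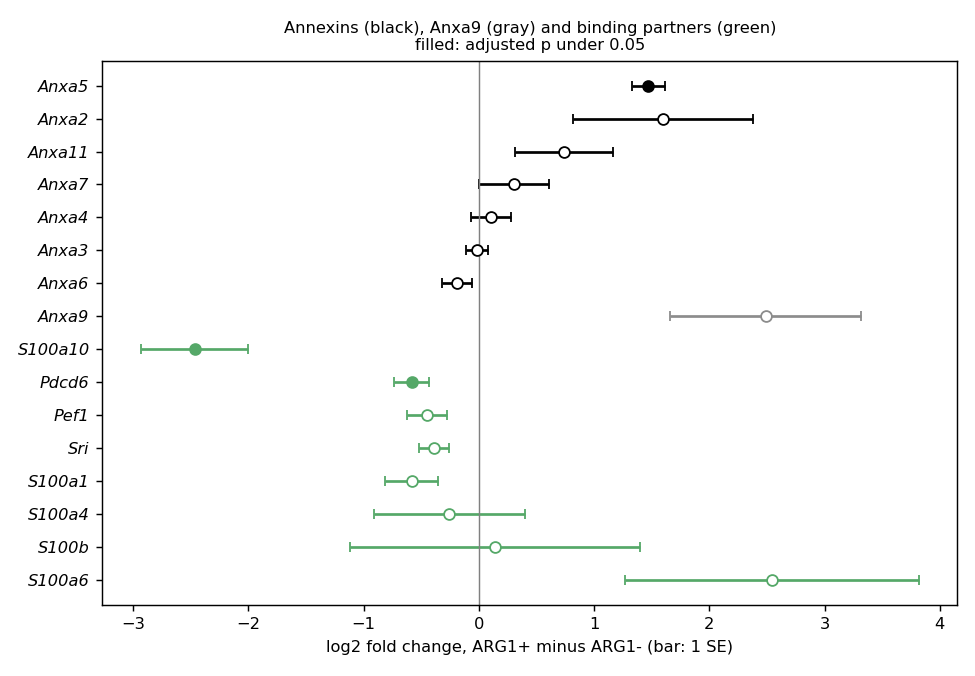
Log2 fold change of ARG1+ minus ARG1- microglia with bars of 1 SE for the tested annexins (black), Anxa9 (gray) and the tested binding partners (green), with filled points at an adjusted p under 0.05. Anxa5 is the filled annexin at 1.47, and S100a10 (-2.47) and Pdcd6 (-0.58) are the filled partners.

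Genes that act on phosphatidylserine gave mixed results. Of 17 genes of phosphatidylserine recognition, 13 were tested, 3 were higher in ARG1+ microglia, 1 was lower, and the median log2 fold change was 0.54, beside 6.44% of all genes higher and 9.42% lower. The receptor kinases *Axl* and *Mertk*, which bind phosphatidylserine through bridging proteins, rose by 1.12 (SE 0.11, adjusted p = 0.000275) and 0.64 (SE 0.15, adjusted p = 0.0136) on the log2 scale, and *Stab1*, a scavenger receptor, was the third. *Trem2*, a lipid-sensing receptor of microglia, was lower, at 1243 ± 161 CPM in ARG1+ against 1633 ± 119 CPM in ARG1- microglia (SD, n = 6; -0.40 on the log2 scale, SE 0.09, adjusted p = 0.0109, edgeR). Of 11 genes that expose or hide phosphatidylserine, 9 were tested and 1 was higher, the flippase *Atp8a2* (0.98, SE 0.19, adjusted p = 0.00575).

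Of 18 membrane repair genes, 13 were tested, 2 were higher and 1 was lower, with a median log2 fold change of -0.23. The 3 calls stand beside 15.9% of all genes called in either direction. *Myof*, the membrane fusion protein myoferlin, had 0 counts in all ARG1- libraries. It had 13 to 131 counts in the 6 ARG1+ libraries (adjusted p = 0.00323, edgeR). With ARG1- libraries set to the floor of 3 counts per library, the difference was 15.2-fold. The floor covers counting error only and not transcripts lost before counting, so this value is not a lower limit. Lone zeros in well-read genes, counted above with *Anxa2*, numbered 0 to 35 per ARG1- and 0 to 1 per ARG1+ library. *Pdcd6ip*, the ALG-2 partner ALIX, rose by 0.51 (SE 0.14, adjusted p = 0.0264, edgeR), a call lost without ARG1- female replicate 13 (adjusted p = 0.0577), ARG1- male replicate 5 (0.0542) or ARG1- male replicate 6 (0.0581). *Chmp2a*, a subunit of the ESCRT-III membrane scission complex, fell by 0.62 (SE 0.12, adjusted p = 0.00466, edgeR).

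Gene lists around annexin A1 were counted in the same way, beside 6.44% of all genes called higher, 9.42% lower and 15.9% in either direction. None of the 7 formyl peptide receptor genes had enough reads to be tested, and 5 of them were at 0 in both populations. Of the 7 glucocorticoid response genes tested, 0 were called by edgeR. Of 12 tested genes of phospholipase A2 and eicosanoid synthesis, 2 were lower and 1 was higher. The lower genes were the leukotriene genes *Alox5ap* (-1.09, SE 0.12, adjusted p = 0.000364) and *Ltc4s* (-0.97, SE 0.15, adjusted p = 0.00169). The higher gene was *Ptgs2*, at 0 counts in all ARG1- libraries and over the floor in 3 of 6 ARG1+ libraries (adjusted p = 0.0403, edgeR), and that call was lost whichever library was left out. Of the 5 copines tested, which bind phospholipids through a different fold, 0 were called.

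The genes whose profile over the 12 libraries was nearest to that of *Anxa5* were *Axl*, *Fyco1*, *Ccnl2*, *Zc3h13* and *C3ar1*, by root mean square distance of centred log2 CPM among 8952 genes. The distances were 0.264, 0.269, 0.276, 0.284 and 0.289 in log2 units. *Anxa5* was taken because it had the smallest p for ARG1 status, so genes with a similar ARG1 difference are near it by construction. The log2 fold changes of the nearest genes lay between 0.99 (*C3ar1*) and 1.44 (*Fyco1*). A tie to *Anxa5* beyond that difference was not tested. *C3ar1* is the receptor of a complement fragment, *Fyco1* an adaptor for autophagosome transport, and *Ccnl2* belongs to the detained-intron list. Their mean levels in ARG1- and ARG1+ microglia were 69.8 and 152 CPM for *Axl* and 254 and 506 CPM for *C3ar1*.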

How the data were processed

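The values the authors deposited are raw read counts per Ensembl gene, 1 column per library and with no normalization. Per the labels and the study's methods, SMART-Seq v4 cDNA and Nextera XT libraries were sequenced as 75-base single-end reads, demultiplexed with bcl2fastq 2.20.0, aligned to GRCm38 with STAR 2.6.1d and counted with featureCounts 1.5.1; the strand setting is not given in the sources used here. There are no molecular identifiers, so copies made in amplification count as reads, and floors cover counting error only. Symbols and exon lengths came from GENCODE M21, which matched 55227 of 55487 identifiers.

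Counts were filtered with filterByExpr on the 4 groups, normalized by TMM and tested in R 4.3.3 with edgeR 4.0.16 (glmQLFit, glmQLFTest, Benjamini-Hochberg over 16908 genes, limit 0.05). ARG1 status was fitted with sex as a term over all 12 libraries. Sex within population, population within sex and the interaction came from a fit of the 4 group means. The script was tested on simulated data. Replicate pairs of a group differed beyond sampling noise (chi-square per degree of freedom 40.7 to 125 over 12 pairs), so each library counts once. The members and lists were chosen with earlier results of these data known. Named genes were the annexins, their 10 listed partners, up to 3 genes of smallest adjusted p per list (membrane repair, phosphatidylserine exposure and recognition, copines, formyl peptide receptors, phospholipase A2 and eicosanoid, glucocorticoid response), the 5 profiles nearest to the member of smallest p (mean of at least 10 CPM) and *Arg1*. *Stab1* and *1810062G17Rik* were added to these with their values known.

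Alternatives were DESeq2 size factors, upper-quartile factors and total counts in place of TMM; no filter or at least 10 counts in every library; a term for, or removal of, libraries 13 to 16; ARG1 status alone; DESeq2 1.42.0; glmTreat against 1.5-fold; thinned counts; only the 6 libraries of a contrast; and each library left out in turn.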

Additional observations from a re-analysis of the deposited data

Results flagged for a closer look

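Values far from the other libraries of their group of 6 were looked for in 62 sets of 6, and 16 were found. No number expected by chance is given, because any count stands out in a set whose other libraries have 0 counts. Among the members they were *Anxa7* at 57.2 CPM in ARG1+ male replicate 12, *Anxa11* at 2.79 CPM in ARG1- female replicate 1 and *Anxa1* at 0.0681 CPM, 2 counts, in ARG1+ female replicate 8. *Anxa13* stood out at 0.549 CPM in ARG1- female replicate 2 and at 0.0420 CPM, 2 counts, in ARG1+ male replicate 12. The log2 ratio of *Anxa2* to *S100a10* was -7.43 in ARG1- female replicate 13, against -0.52 to 1.23 in the other ARG1- libraries.

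ARG1+ female replicate 15 was the high library for *S100a11* (0.285 CPM), *S100a6* (1.25 CPM), *S100a4* (2.22 CPM) and *Arg1* (1.48 CPM). *Ahnak* was at 0.681 CPM in ARG1+ female replicate 8 and at 0.0900 CPM in ARG1- female replicate 1, and *S100b* at 2.49 CPM in ARG1- male replicate 5. *Pdcd6ip* reached 261 CPM in ARG1+ male replicate 16. ARG1+ male replicate 11 was low for *Atp8a2* (114 CPM) and high for *Trem2* (1555 CPM).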

How the results depend on the processing

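*Anxa5* was called higher under all 11 alternatives, with log2 fold changes of 1.36 to 1.57. The count of members higher was 1 under each of them and 1 to 2 with 1 library left out, the second being *Anxa2* without ARG1- female replicate 13. The count of members lower stayed at 0. Members differing between populations in males numbered 0 to 1 with 1 library left out, 0 with only the 6 libraries and 2 with DESeq2 on the 4 groups (*Anxa5* and *Anxa11*). The fits with 0 members called few genes of any kind in males. Without ARG1+ male replicate 12 there were 7 higher and 1 lower of 17725, and with only the 6 libraries 1 higher of 15356. The log2 fold change of *Anxa3* changed sign: 0.021 with DESeq2 size factors, 0.00028 with upper-quartile factors, 0.075 with total counts, 0.016 without a filter, 0.021 with at least 10 counts in every library, 0.097 without libraries 13 to 16, 0.028 with DESeq2, and -0.080 to 0.056 with 1 library left out. *S100a4* ranged from -0.70 to 0.023 with 1 library left out. *S100b* was at -0.73 with ARG1 status alone, -0.0074 without libraries 13 to 16 and -0.38 to 1.53 with 1 library left out. The cause was not tested. Over all genes, 2682 were called, against 4105 with DESeq2, 247 with glmTreat, 638 without libraries 13 to 16 and 1753 without ARG1+ male replicate 12. Of the called genes 40.6% were higher, and 55.2% with total counts. The calls of *Chmp2a*, *Atp8a2*, *Trem2*, *Mertk* and *Pdcd6ip* were lost without libraries 13 to 16 and with glmTreat, that of *Ltc4s* with glmTreat (adjusted p = 0.0956), and that of *Pdcd6* under both, with total counts (adjusted p = 0.0728) and without a filter (0.0576). The call of *Ptgs2* was lost under both, without a filter, with a term for libraries 13 to 16, with ARG1 status alone and with DESeq2 (adjusted p from 0.0550 to 0.281). *Anxa9*, not called, passed with ARG1 status alone and with DESeq2. The difference in the *Anxa2* to *S100a10* ratio was 4.11 with medians and 3.91 to 5.64 with 1 library left out. The ratio without an added count could not be had because *Anxa2* is 0 in 1 library, *Anxa2* left the test under 10 counts in every library, and the ratio of *Anxa1* to *S100a11* was not computed because *Anxa1* is under 3 counts throughout. Per the study's methods, cells of pooled brains were sorted into ARG1+ and ARG1- fractions, so libraries of the populations may share a pool. No paired analysis was possible because no replicate number is shared between groups and the labels do not give the pairs. The libraries were therefore tested as unpaired. *Anxa1* was under the floor of 3 counts in all libraries, the deepest included, and whether it is absent or too low to be read was not tested.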
